A study of Mus musculus with 16 samples.

Results

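The genes described here are the heat shock proteins and the DnaJ cochaperones of the mouse kidney, taken as every gene of the deposited table whose symbol starts with HSPA, HSPB, HSPD, HSPE, HSPH, HSP90 or DNAJ. The rule found 61 of 18132 genes, and all 61 matched a symbol of the RefSeq annotation of GRCm38.p6. They were 12 HSP70 genes, 3 HSP90 genes, the 2 subunits of the mitochondrial chaperonin, 6 small heat shock proteins, 37 DNAJ genes and Hspbap1, which encodes a binding partner of Hspb1 rather than a heat shock protein. RefSeq holds 74 protein-coding genes of these names, and 13 of them, among them Hsph1, Hspa1b and Dnajb11, were not analysed here.

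RNA of whole kidneys was hybridized to Illumina BeadChips, with 1 array per kidney, 24 h after unilateral ureteral obstruction (UUO), in which a metal clip closes 1 ureter, or without treatment. There were 7 wild type (WT) and 5 IL-33-deficient (KO) kidneys after UUO, and 2 WT and 2 KO controls. Of the UUO kidneys, 3 WT and 2 KO came from set 1 of the mice and 4 WT and 3 KO from set 2, while the set of the controls is not given. The labels give all mice as C57/BL6. The KO mice, which lack the cytokine interleukin 33, had been bred over 10 generations onto Taconic C57BL/6J BomTac per the methods, and mice had an age of 8 weeks where the methods state no other. The labels call the controls untreated, while UUO mice had anesthesia, surgery and buprenorphine, so the effects of obstruction, surgery and drug cannot be told apart. Arrays are named by the number in their label. Values are log2 intensities, the brightness of a gene's probes on a doubling scale, and a log2 fold change of 1 is a doubling.

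Chaperones keep other proteins folded. HSP70 proteins bind and release stretches of unfolded chain with the energy of ATP, a cycle that is started by the J domain of a DnaJ protein, and HSP90 finishes the folding of client proteins such as kinases and receptors. Small heat shock proteins hold unfolded proteins without ATP until HSP70 can act. Under heat, oxidants or lack of energy the heat shock factor HSF1 drives the transcription of inducible members, while the endoplasmic reticulum (ER) and the mitochondria have members of their own, and the ischemic kidney tubule is a known place of strong Hspa1a and Hspb1 induction.

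The labels could be checked on these arrays. Il33 averaged 7.82 ± 0.28 (SD, n = 2) in WT and 6.87 ± 0.02 (SD, n = 2) in KO controls, and 9.25 ± 0.41 (SD, n = 7) against 6.89 ± 0.08 (SD, n = 5) after UUO. The injury marker Havcr1 rose by 5.78 in WT and 6.52 in KO kidneys on the log2 scale. Among the WT UUO arrays 3820 stood apart with a Havcr1 value of 10.42, and 3818 followed at 12.84, while the other 5 lay between 13.12 and 13.95. Both belong to set 1. For several genes described below the WT response is also given without both, a choice made after the data were seen. Over all genes this choice raised the calls in WT kidneys from 2754 to 4116, so such values are no independent test. Of the 61 members, 18 had a mean below 7.05, the median over all genes, where the lowest value was 6.59. Intensities this close to background compress fold changes, and such genes can change without a visible difference.

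Most of the chaperones did not pass the test. In WT kidneys 3 members rose after UUO and 4 fell at an adjusted p of 0.05 (limma, Benjamini-Hochberg adjustment over all 18132 genes), and 54 were not called. Over all genes 6.97% rose and 8.22% fell. In KO kidneys 7 members rose and 7 fell, against 10.6% and 11.2% of all genes. The share of members called was 11.5% in WT and 23.0% in KO kidneys, and that of all genes 15.2% and 21.8%, so the shares of the members lay near those of all genes. Most members, 43 of 61, were however brighter than the median gene. With only the 9066 genes above that median tested, 8 of 43 members and 2989 of all 9066 were called in WT kidneys. In KO kidneys 14 of 43 members and 4023 of the 9066 were called, so members had the smaller share in both genotypes. In bulk RNA fewer cells of a type and less RNA per cell cannot be told apart. The median log2 fold change of the members was 0.01 in WT and 0.03 in KO kidneys. The 7 genes called in WT kidneys were also called in KO kidneys, and the other 7 called in KO kidneys had the same sign in WT kidneys. All 14 were among the 43 members with a mean above 7.05. The 2 responses have separate controls, but each control group has only 2 arrays. Both responses came from the same model, with a spread estimated over all arrays, so the 2 calls of a gene are not independent. With the arrays of each genotype fitted alone, 3 members were called in WT kidneys (Dnaja3, Dnajc12 and Hspb6) and 15 in KO kidneys. Those 3 were among the 15. How often the calls of all genes overlapped or shared their sign is not given here.

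**Figure D1:**
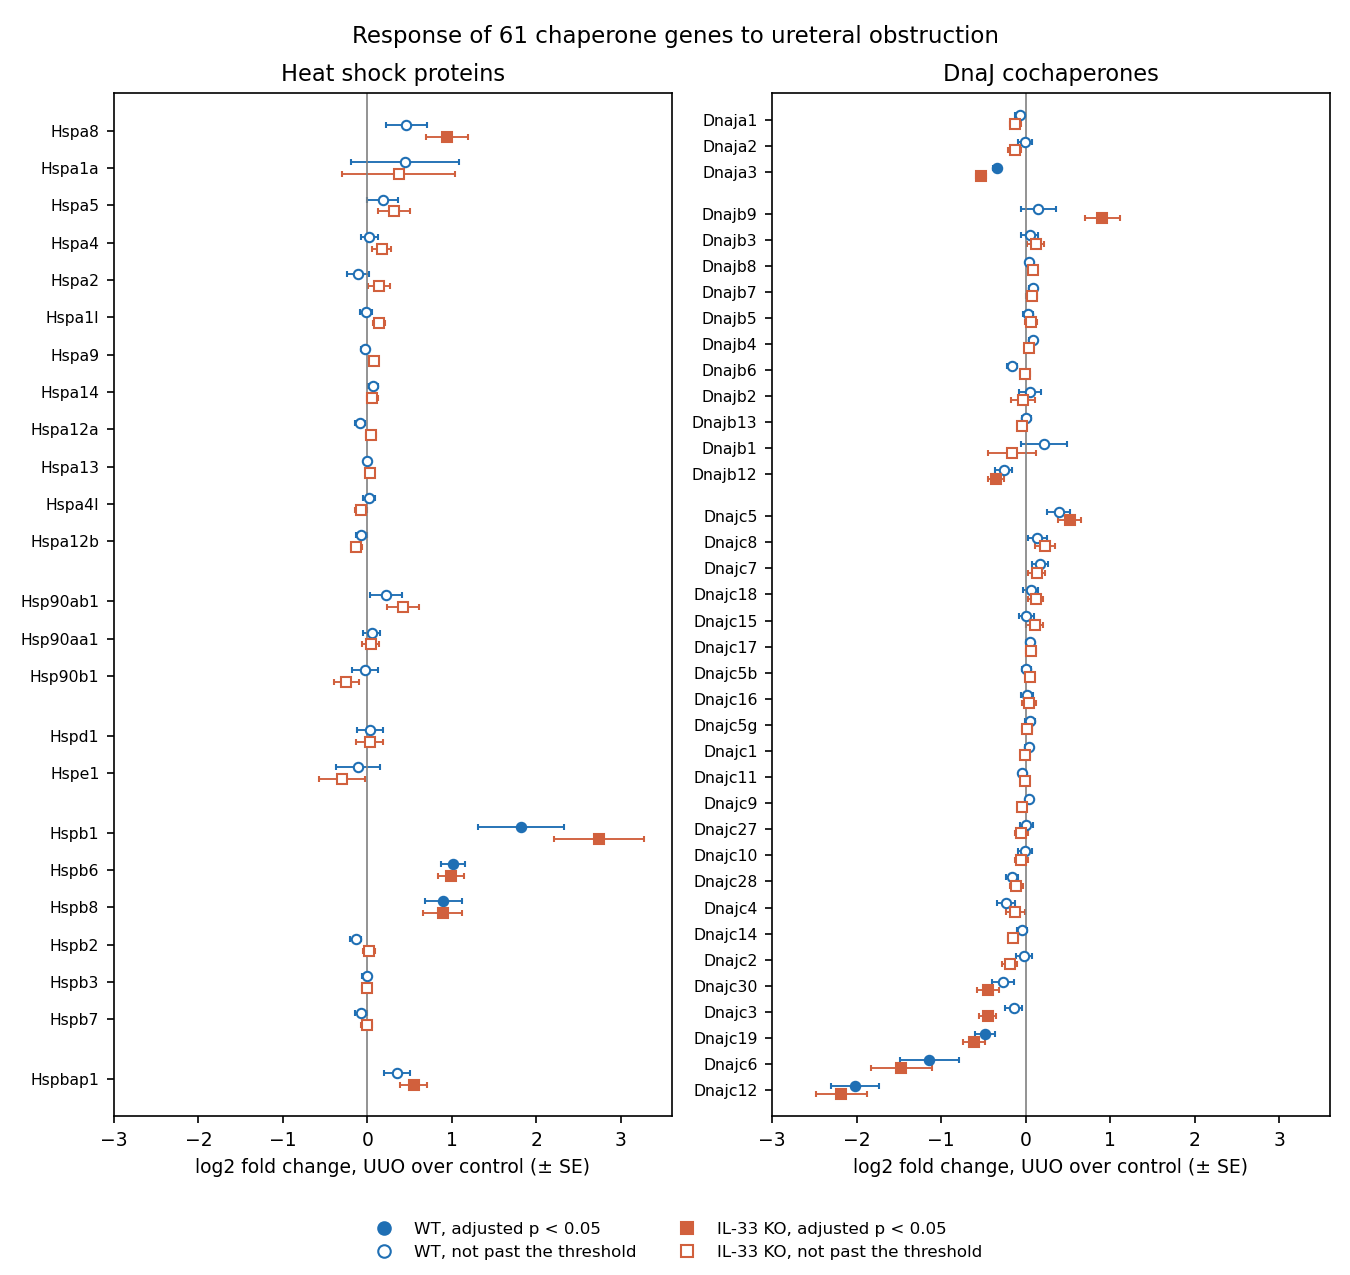
Log2 fold change of each of the 61 genes, UUO over control, in WT (circles) and IL-33-deficient kidneys (squares), with the standard error as bars and filled symbols where the adjusted p was under 0.05. Hspb1, Hspb6 and Hspb8 lie to the right of 0 and Dnajc12, Dnajc6, Dnajc19 and Dnaja3 to the left of it in both genotypes, and most other genes sit near 0.

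The members that rose in both genotypes were 3 small heat shock proteins. Of 6 measured, Hspb1, Hspb6 and Hspb8 rose in WT and in KO kidneys, where 6.97% and 10.6% of all genes rose. Hspb2, Hspb3 and Hspb7 did not pass the test, with log2 fold changes between -0.14 and 0.02 and means between 6.87 and 7.08. The sequences before the starts of the 3 genes that rose are shown here because all 3 moved together, each as the 250 bases before the RefSeq start on the gene's own strand (GRCm38.p6), with capitals for GAANNTTC, the shorter form of the heat shock motif.
Hspb1, chr5:135887669-135887918, plus strand: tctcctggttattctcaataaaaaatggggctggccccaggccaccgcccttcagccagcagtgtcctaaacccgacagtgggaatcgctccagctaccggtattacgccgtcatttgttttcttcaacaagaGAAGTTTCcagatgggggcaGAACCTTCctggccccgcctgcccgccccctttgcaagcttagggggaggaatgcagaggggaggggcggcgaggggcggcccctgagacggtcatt
Hspb6, chr7:30553051-30553300, plus strand: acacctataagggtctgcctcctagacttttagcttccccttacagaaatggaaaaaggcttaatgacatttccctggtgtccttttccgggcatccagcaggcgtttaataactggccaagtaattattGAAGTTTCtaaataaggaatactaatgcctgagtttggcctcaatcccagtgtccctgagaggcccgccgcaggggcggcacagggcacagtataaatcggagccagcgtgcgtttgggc
Hspb8, chr5:116422865-116423114, minus strand: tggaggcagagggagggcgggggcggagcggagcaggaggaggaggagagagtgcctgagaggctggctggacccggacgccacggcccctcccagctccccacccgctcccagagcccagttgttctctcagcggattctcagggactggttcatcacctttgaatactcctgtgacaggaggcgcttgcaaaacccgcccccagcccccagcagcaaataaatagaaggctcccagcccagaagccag
The motif, searched after the data were seen, lay 117 to 110 and 97 to 90 bases before the Hspb1 start. It lay 120 to 113 bases before this Hspb6 start, one of 2 in the table, and the window of the other Hspb6 start held no match. No match was found in the Hspb8 window, while that of Hspb3, which did not pass the test, held one 224 to 217 bases before its start. Searched on both strands, the motif is found in the windows of 9 of the 48 members that have one and in the windows of 7.73% of 27025 genes. The 2 shares were not compared by a test. A match describes the sequence, and binding was not tested.

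Hspb1 encodes HSP25, which guards actin filaments in stressed tubule cells. It measured 8.99 and 9.51 in the WT controls and 8.76 and 8.80 in the KO controls. After UUO the 7 WT kidneys ranged from 9.53 to 12.43 with a median of 11.17. The 5 KO kidneys measured 11.49, 11.85, 11.46, 11.47 and 11.36. All KO values lay far above the controls, while the lowest WT value, that of array 3820, was barely above the higher WT control. The rise was 1.82 ± 0.51 (SE, adjusted p = 0.0252, limma), or 3.53-fold, in WT kidneys and 2.74 ± 0.53 (adjusted p = 0.00158, limma), or 6.7-fold, in KO kidneys. Without arrays 3818 and 3820 the WT rise was 2.32 ± 0.27. With the UUO arrays of set 1 alone it was 1.20 ± 0.55 and not called (adjusted p = 0.344, limma), and with those of set 2 alone 2.29 ± 0.29. Either WT control left out also ended the WT call.

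Hspb6 encodes HSP20, a small heat shock protein abundant in smooth muscle. It measured 9.14 in both WT controls, 9.10 and 9.14 in the KO controls, 9.71 to 10.46 with a median of 10.16 after UUO in WT kidneys, and 10.05, 10.05, 10.07, 10.31 and 10.08 in KO kidneys. No UUO kidney overlapped the controls. Hspb6 rose by 1.01 ± 0.14 (SE, adjusted p = 0.00041, limma) in WT and by 0.99 ± 0.15 (adjusted p = 0.000214, limma) in KO kidneys, which is 2.01-fold and 1.99-fold. Array 3818 held the highest Hspb6 value of the WT UUO kidneys, 10.46, and array 3820 the lowest, 9.71. Without both arrays the rise was 1.03 ± 0.09.

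Hspb8 encodes HSP22, which works with Bag3 to hand misfolded proteins to autophagy. Its values were 7.12 and 7.22 in WT controls, 7.24 and 7.25 in KO controls, 7.68 to 8.84 with a median of 7.93 in WT UUO kidneys, and 8.20, 8.42, 8.02, 8.22 and 7.83 in KO UUO kidneys. The groups did not overlap within either genotype. The rise was 0.90 ± 0.22 (SE, adjusted p = 0.0137, limma) in WT and 0.89 ± 0.23 (adjusted p = 0.0115, limma) in KO kidneys. Its controls were close to background, where intensities compress fold changes. In WT kidneys the calls of Hspb8 and Dnajc19 were lost without either control, as that of Hspb1 was. Bag3 itself averaged 10.64 ± 0.20 (SD, n = 2) in WT controls and 11.21 ± 0.35 (SD, n = 7) after UUO, and its log2 fold changes of 0.57 and 0.53 did not pass the test (adjusted p = 0.0585 and 0.0744, limma).

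Cryab, a small heat shock protein whose name escapes the rule, measured 10.41 and 10.10 in WT controls, 10.31 and 9.61 in KO controls, 10.34 to 12.12 in WT UUO kidneys and 11.55 to 12.33 in KO UUO kidneys. Among the UUO kidneys, only array 3820 lay within the range of its controls. The rise was 1.12 ± 0.35 (SE, adjusted p = 0.0429, limma) in WT and 2.02 ± 0.36 (adjusted p = 0.000964, limma) in KO kidneys. Without arrays 3818 and 3820 the WT rise was 1.43 ± 0.22. The WT call was lost without 3819, at 0.99 ± 0.32 (adjusted p = 0.0562, limma), and with the UUO arrays of set 1 alone, at 0.85 ± 0.47 (adjusted p = 0.449, limma). Hspbap1, the Hspb1-binding protein, rose in KO kidneys by 0.55 ± 0.16 (adjusted p = 0.0228, limma), and its log2 fold change in WT kidneys was 0.35 ± 0.15 (adjusted p = 0.157, limma).

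**Figure D2:**
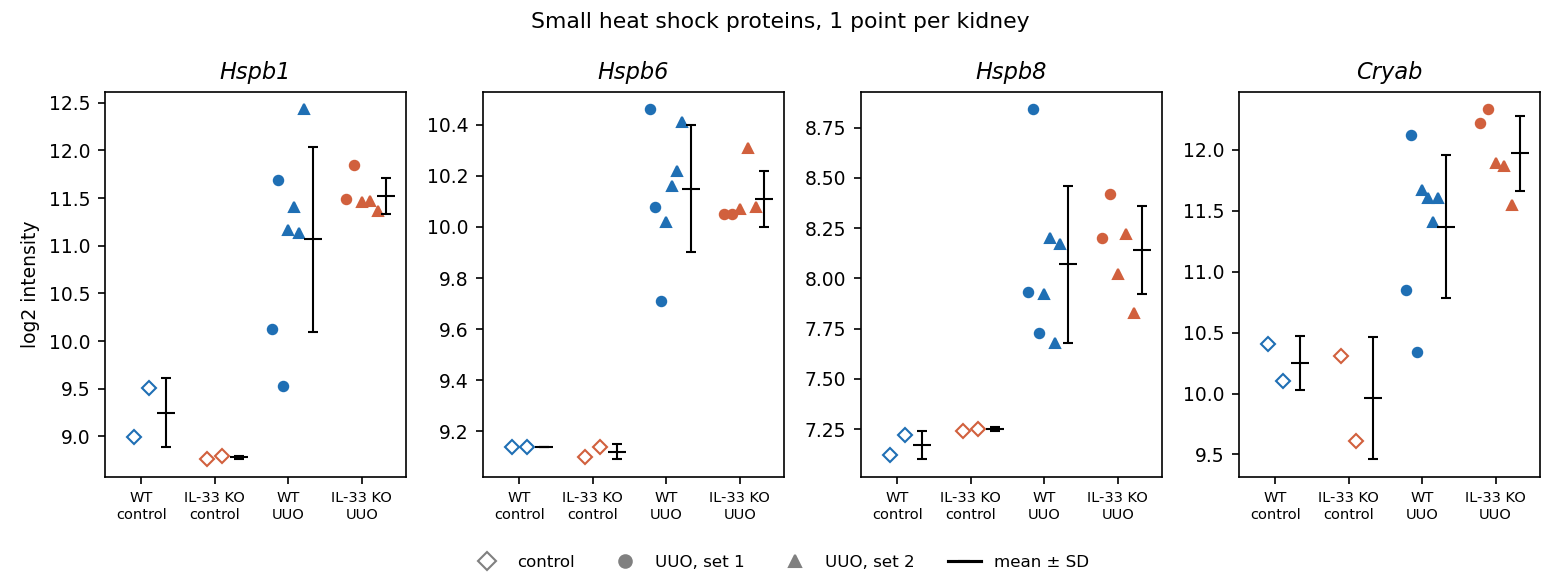
Log2 intensity of Hspb1, Hspb6, Hspb8 and Cryab in each kidney by group, with diamonds for controls, circles for set 1 and triangles for set 2 after UUO, and the mean ± SD beside each group. UUO kidneys lie above the controls for the 3 HSPB genes, Hspb1 in 1 WT kidney of set 1 only just, at 9.53 against 9.51.

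The called DnaJ cochaperones were mostly lower after UUO. Of 37 genes 4 fell in WT and 7 in KO kidneys, where 8.22% and 11.2% of all genes fell. Counted by sign alone, the WT response was above 0 in 0 of 3 DNAJA, 9 of 11 DNAJB and 12 of 23 DNAJC genes. In KO kidneys it was above 0 in 0, 6 and 9 genes of these groups. Over all 18132 genes, 8999 were above 0 in WT and 9021 in KO kidneys. Dnajc12, Dnajc6, Dnajc19 and Dnaja3 fell in both genotypes, Dnajc3, Dnajc30 and Dnajb12 fell in KO kidneys, and Dnajb9 and Dnajc5 rose in KO kidneys. No DNAJ gene rose in WT kidneys at the threshold with all arrays, where 6.97% of all genes rose in WT and 10.6% in KO kidneys. Dnajc5 was called as higher in WT kidneys with array weights (0.43 ± 0.12, adjusted p = 0.013, limma). The same held with the UUO arrays of set 2 alone (0.42 ± 0.1, adjusted p = 0.0103, limma).

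Dnajc12, a partner of the aromatic amino acid hydroxylases, had the deepest fall of all members. It measured 10.14 and 10.30 in WT controls and 10.08 and 10.09 in KO controls. In WT UUO kidneys it ranged from 7.68 to 9.15 with a median of 8.10, and in KO UUO kidneys it was 7.82, 7.78, 8.0, 7.89 and 8.04. Groups did not overlap, and the 2 highest WT UUO values, 8.70 and 9.15, were those of arrays 3818 and 3820. Its log2 fold changes were -2.02 ± 0.28 (SE, adjusted p = 0.000462, limma) in WT and -2.18 ± 0.30 (adjusted p = 0.000123, limma) in KO kidneys, a 4.05-fold and a 4.53-fold drop. Without arrays 3818 and 3820 the WT value was -2.31 ± 0.12.

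Dnajc6 encodes auxilin, which brings Hspa8 to clathrin-coated vesicles so that their coat comes off. The controls measured 9.41 and 9.34 in WT and 9.35 and 9.49 in KO kidneys. After UUO, WT kidneys ranged from 7.62 to 9.28 with a median of 7.87, and KO kidneys lay at 7.98, 7.88, 7.92, 7.98 and 7.99. Arrays 3818, at 9.07, and 3820, at 9.28, stayed near the controls, and the other 10 UUO kidneys lay at or below 8.23. The log2 fold change was -1.14 ± 0.35 (SE, adjusted p = 0.0383, limma) in WT and -1.47 ± 0.36 (adjusted p = 0.00782, limma) in KO kidneys. Without arrays 3818 and 3820 the WT log2 fold change was -1.51 ± 0.11, and with set 1 UUO arrays alone -0.64 ± 0.37 (adjusted p = 0.471, limma). The WT call was also lost without any one of 3811, 3812, 3819, 3892, 3893, 3894 or 3895.

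Dnajc19 and Dnaja3 work in mitochondria, Dnajc19 at the import motor of the inner membrane and Dnaja3 as a J protein of the matrix. Dnajc19 was 10.79 and 10.74 in WT controls, 10.77 and 10.80 in KO controls, 10.10 to 10.65 with a median of 10.20 in WT UUO kidneys, and 10.04, 10.05, 10.17, 10.31 and 10.31 in KO UUO kidneys. Dnaja3 was 10.68 and 10.74, then 10.77 and 10.83, 10.28 to 10.47 with a median of 10.36, and 10.33, 10.15, 10.28, 10.26 and 10.30 in the same order of groups. Neither gene had a UUO kidney within the range of its controls. The log2 fold changes were -0.48 ± 0.12 (SE, adjusted p = 0.0141, limma) in WT and -0.61 ± 0.13 (adjusted p = 0.00241, limma) in KO kidneys for Dnajc19, and -0.34 ± 0.05 (adjusted p = 0.000988, limma) and -0.53 ± 0.06 (adjusted p = 2.19e-05, limma) for Dnaja3. Without arrays 3818 and 3820 the WT values were -0.58 ± 0.08 and -0.35 ± 0.06.

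**Figure D3:**
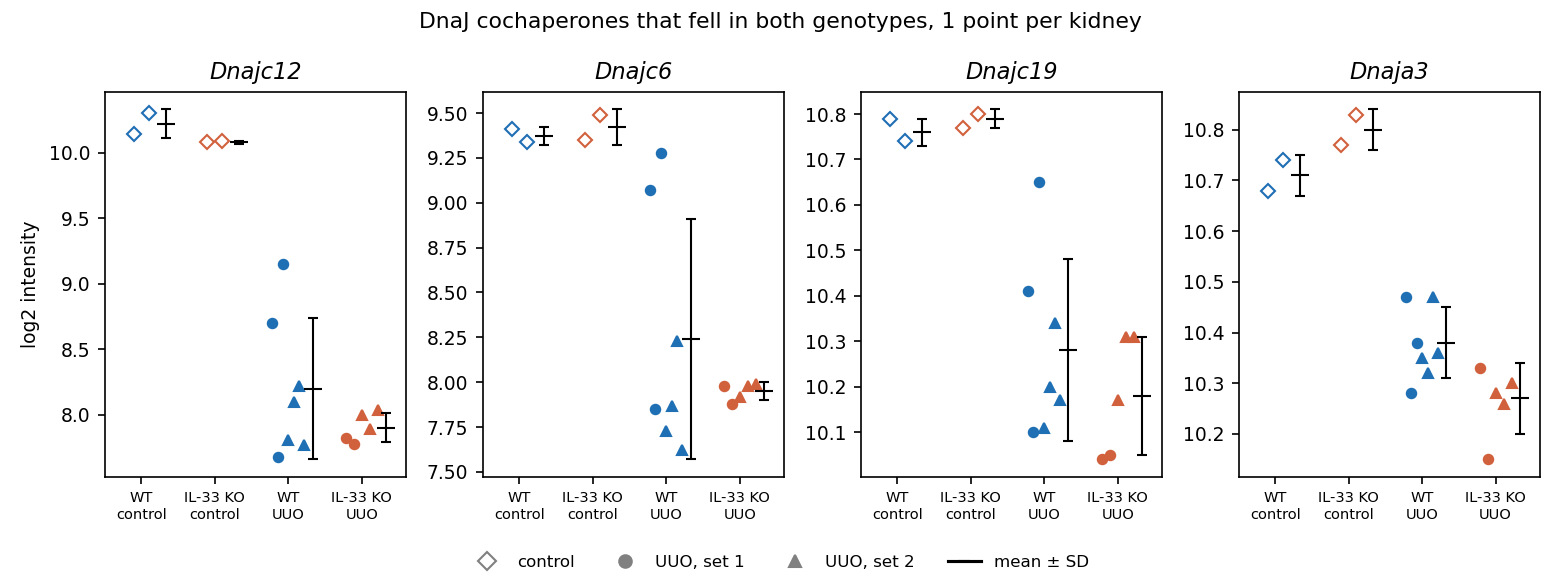
Log2 intensity of Dnajc12, Dnajc6, Dnajc19 and Dnaja3 in each kidney by group, with symbols as in the plot of the small heat shock proteins and the mean ± SD beside each group. UUO kidneys lie below the controls, and for Dnajc12, Dnajc6 and Dnajc19 the highest 2 WT UUO kidneys are both of set 1.

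The mitochondrial HSP70 and chaperonin did not pass the test, and their difference from the cochaperones was not tested. Hspa9, the HSP70 of the matrix, ranged over all 16 arrays only from 12.48 to 12.68, with log2 fold changes of -0.03 ± 0.05 (SE) in WT and 0.08 ± 0.05 in KO kidneys. Hspd1 and Hspe1, the large ring and the lid of the chaperonin, had log2 fold changes of 0.03 ± 0.15 and -0.11 ± 0.26 in WT kidneys, with adjusted p-values of 0.942 and 0.868 (limma), and of 0.03 ± 0.16 and -0.30 ± 0.27 in KO kidneys, with 0.947 and 0.535. Their 95% intervals in WT kidneys, -0.30 to 0.36 and -0.67 to 0.45, leave room for falls the size of those of the cochaperones in Hspe1, while that of Hspa9, -0.13 to 0.08, is narrow. In KO kidneys the interval of Hspe1 was -0.89 to 0.28. Of 16 measured genes of a list of mitochondrial chaperones and cochaperones, 9 of them members, 3 fell in WT (Dnaja3, Dnajc19 and the HSP90 of mitochondria, Trap1) and 6 in KO kidneys (Dnaja3, Dnajc19, Dnajc30, Grpel2, Timm44 and Clpb), and none rose, beside falls in 8.22% and 11.2% of all genes. The median over the list was -0.13 in WT kidneys, against 0.00 over all genes. Clpx, a mitochondrial unfoldase, fell by 0.55 in WT and by 1.08 in KO kidneys (adjusted p = 0.00727 and 5.41e-05, limma).

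Hspd1 and Hspe1 lie head to head and share their promoter, and the window of Hspe1 is shown because it holds a full heat shock element, GAANNTTCNNGAA, searched on both strands, in a pair of genes that did not pass the test. The 250 bases before the Hspe1 start carry 2 overlapping matches, 89 to 77 and 84 to 72 bases before the start, here in capitals.
Hspe1, chr1:55087898-55088147, plus strand: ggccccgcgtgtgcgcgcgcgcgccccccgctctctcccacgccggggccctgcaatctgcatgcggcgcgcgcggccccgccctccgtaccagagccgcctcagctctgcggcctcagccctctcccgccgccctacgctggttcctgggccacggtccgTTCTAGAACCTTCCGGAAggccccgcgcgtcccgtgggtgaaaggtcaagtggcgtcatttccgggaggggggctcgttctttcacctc
The full element was found in the windows of 3 of the 48 members that have one in the table, Hspd1, Hspe1 and Dnajb6, and in those of 0.514% of all genes. The matches of Hspd1 and Hspe1 are the same bases read on opposite strands.

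The inducible HSP70 of the cytosol varied widely between kidneys and did not pass the test. Hspa1a, the heat-inducible HSP70, measured 9.04 and 8.19 in WT controls, 8.39 and 7.92 in KO controls, 8.33 to 11.39 with a median of 8.58 in WT UUO kidneys, and 7.86, 7.92, 8.76, 9.45 and 8.64 in KO UUO kidneys. One WT kidney, 3819 of set 1, stood at 11.39, and the other 6 between 8.33 and 9.35 overlapped the controls. The log2 fold changes of 0.44 ± 0.64 (SE) in WT and 0.37 ± 0.67 in KO kidneys did not pass the test (adjusted p = 0.765 and 0.795, limma). Without 3819 the WT value was 0.05 ± 0.38. Dnajb1, the J protein that starts the cycle of Hspa1a and Hspa8, was 10.39 and 10.32 in WT controls, 10.40 and 10.49 in KO controls, 10.17 to 11.52 with a median of 10.44 in WT UUO kidneys and 9.91, 9.99, 10.32, 10.74 and 10.47 in KO UUO kidneys. The same 3 UUO kidneys, WT 3819 and 3892 and KO 3898, had the highest values of both genes. The probes of Hspa1a may also read its near-identical copy Hspa1b, which was not analysed here.

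Hspa8, the constitutive HSP70 that serves folding and clathrin uncoating, measured 13.09 and 12.97 in WT controls, 12.26 and 12.51 in KO controls, 12.96 to 13.88 with a median of 13.56 in WT UUO kidneys, and 12.68, 13.12, 13.55, 13.74 and 13.56 in KO UUO kidneys. The KO groups did not overlap, while WT array 3818 lay just below its controls. Hspa8 rose by 0.94 ± 0.25 (SE, adjusted p = 0.0132, limma) in KO kidneys, and in WT kidneys its log2 fold change was 0.46 ± 0.24 (adjusted p = 0.263, limma). The KO rise was 1.23 ± 0.11 with the UUO arrays of set 2 and 0.51 ± 0.28 with those of set 1, where it was not called (adjusted p = 0.333, limma). With the UUO arrays of set 2 alone Hspa8 was also called in WT kidneys, at 0.47 ± 0.11 (adjusted p = 0.0061, limma). Hsp90ab1, the constitutive HSP90 of the cytosol, had log2 fold changes of 0.22 ± 0.19 in WT and 0.42 ± 0.19 in KO kidneys (adjusted p = 0.554 and 0.16, limma). Without arrays 3818 and 3820 the WT value of Hsp90ab1 was 0.38 ± 0.12. Hsp90ab1 was called as higher in KO kidneys with KO arrays alone (0.42 ± 0.06, adjusted p = 0.00117, limma) and with the UUO arrays of set 2 alone (0.43 ± 0.14, adjusted p = 0.0377, limma). Hsp90aa1 and Dnaja1, both abundant in most cells, averaged 7.13 and 6.97 on these arrays, near background, with log2 fold changes between -0.12 and 0.05.

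**Figure D4:**
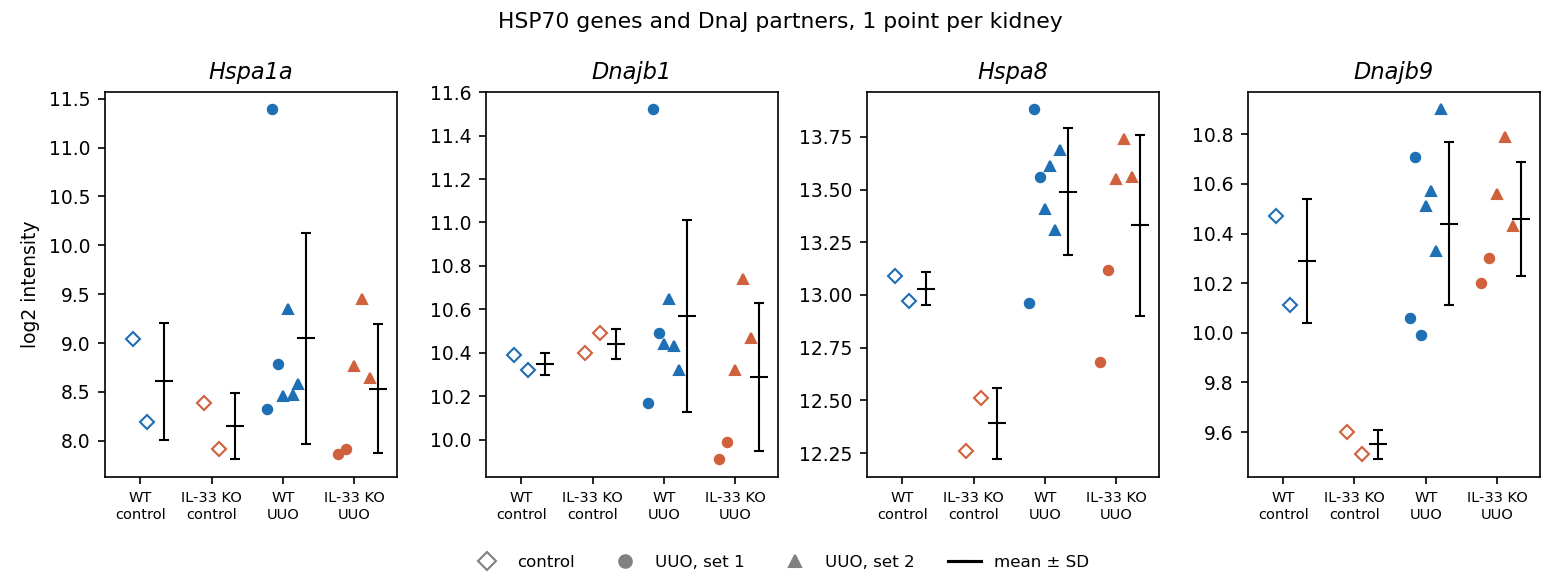
Log2 intensity of Hspa1a, Dnajb1, Hspa8 and Dnajb9 in each kidney by group, with symbols as in the plot of the small heat shock proteins and the mean ± SD beside each group. WT kidney 3819 of set 1 is the highest point of Hspa1a, at 11.39, and of Dnajb1, at 11.52, and the KO controls are the lowest points of Hspa8 and Dnajb9.

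Members of the ER went in different directions. Dnajb9, a J protein of the ER that is induced when unfolded proteins build up there, measured 10.47 and 10.11 in WT controls, 9.60 and 9.51 in KO controls, 9.99 to 10.90 with a median of 10.51 in WT UUO kidneys and 10.20, 10.30, 10.56, 10.79 and 10.43 in KO UUO kidneys. It rose in KO kidneys by 0.91 ± 0.21 (SE, adjusted p = 0.00621, limma) from controls that were lower than every other kidney, and in WT kidneys its log2 fold change was 0.15 ± 0.21 (adjusted p = 0.756, limma). Dnajc3, a cochaperone of Hspa5 that also restrains the kinase PERK, was 9.67 and 9.92 in WT controls, 9.93 and 9.85 in KO controls, 9.54 to 9.90 with a median of 9.61 in WT UUO kidneys, and 9.56, 9.30, 9.43, 9.28 and 9.61 in KO UUO kidneys. Its log2 fold change was -0.45 ± 0.10 (adjusted p = 0.00545, limma) in KO and -0.14 ± 0.10 (adjusted p = 0.468, limma) in WT kidneys. The KO groups did not overlap, and the WT groups did. Dnajb12, a J protein of the ER membrane that helps to send misfolded proteins to degradation, had log2 fold changes of -0.35 ± 0.10 (adjusted p = 0.0209, limma) in KO and -0.26 ± 0.10 (adjusted p = 0.0979, limma) in WT kidneys. Of the other members called in KO kidneys alone, Dnajc5, the cysteine string protein of secretory vesicles, rose by 0.52 ± 0.14 and the mitochondrial J protein Dnajc30 had -0.44 ± 0.13 (adjusted p = 0.0161 and 0.0263, limma), beside 0.39 ± 0.14 and -0.27 ± 0.13 in WT kidneys. The KO calls of Hspa8, Hspb8, Hspbap1, Dnajb12, Dnajc5, Dnajc6 and Dnajc30 were lost without KO control 3813 or 3814, that of Dnajc30 also without 3822, that of Dnajc3 without 3813 and that of Dnajb9 without 3814. In WT kidneys without arrays 3818 and 3820, the log2 fold changes were 0.48 ± 0.12 for Dnajc5 and -0.39 ± 0.08 for Dnajc30. They were -0.28 ± 0.09 for Dnajb12 and 0.47 ± 0.13 for Hspbap1. Both arrays were left out after their values were seen, so these numbers lend the KO calls no support.

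Hspa5 and Hsp90b1, the main HSP70 and HSP90 of the ER, did not pass the test in either genotype. Hspa5 ranged from 7.06 to 7.41 in controls and from 7.08 to 7.83 after UUO, with log2 fold changes of 0.18 ± 0.18 (SE) and 0.31 ± 0.19, and Hsp90b1 had -0.03 ± 0.15 and -0.25 ± 0.15. Without KO control 3814 Hsp90b1 was called as lower in KO kidneys, at -0.54 ± 0.17 (adjusted p = 0.0465, limma). With the UUO arrays of set 2 alone Hspa5 rose in KO kidneys by 0.49. The ER stress element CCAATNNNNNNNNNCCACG, searched on both strands, was found in the windows of Hspa5, Hsp90b1 and Dnajc3 among the members, and in those of 0.13% of all genes. That of Hspa5 is shown with the element, 65 to 47 bases before the start, in capitals, as the window of the best known ER chaperone.
Hspa5, chr2:34771840-34772089, plus strand: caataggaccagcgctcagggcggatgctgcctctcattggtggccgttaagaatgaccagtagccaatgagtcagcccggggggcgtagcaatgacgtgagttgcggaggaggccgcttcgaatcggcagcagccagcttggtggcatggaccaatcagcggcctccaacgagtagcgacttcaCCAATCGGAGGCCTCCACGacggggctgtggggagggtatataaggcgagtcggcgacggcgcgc
None of these 3 members was called as higher with all arrays. Of 16 measured genes of a list of ER chaperones and cochaperones, 8 of them members, Calr and Sec63 rose in both genotypes and Dnajb9 in KO kidneys, while Dnajc3, Dnajb12, Hyou1 and Sil1 fell in KO kidneys. Over all genes 6.97% rose and 8.22% fell in WT kidneys, and 10.6% rose and 11.2% fell in KO kidneys.

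Other genes of the folding machinery were called in both directions, and lists differed in theirs. Over 63 genes of these lists that are no members, 8 rose and 8 fell in WT kidneys, where 6.97% of all genes rose and 8.22% fell. In KO kidneys 12 rose and 13 fell, where 10.6% and 11.2% of all genes did, and 14 were called in both. Of 17 partners of HSP90, 0 rose and 5 fell in WT and 1 rose and 5 fell in KO kidneys, while of 14 genes of the cytosolic chaperonin and prefoldin 3 rose and 1 fell in WT and 6 rose and 1 fell in KO kidneys. The 8 that rose in both were Cryab, Bag2, Sec63, Calr, Serpinh1, Cct4, Cct6a and Pfdn4, of which Cct4 and Cct6a are subunits of the cytosolic chaperonin that folds actin and tubulin, and Pfdn4 belongs to prefoldin, which delivers them. Serpinh1, the collagen chaperone HSP47, rose by 0.75 ± 0.23 (SE) in WT and 1.11 ± 0.24 in KO kidneys (adjusted p = 0.0406 and 0.00356, limma). The 6 that fell in both were Fkbp4, Cdc37l1, Ahsa2, Ppp5c, Cct6b and Clpx, of which all but Cct6b and Clpx are on the list of HSP90 partners. Fkbp4 had log2 fold changes of -0.45 ± 0.07 and -0.48 ± 0.07. Of 16 measured targets of HSF1, 10 of them members, Hspb1 and Cryab rose and Fkbp4 fell in both genotypes, Hspa8 rose in KO kidneys, and the remaining 12 were called in neither. The median over that list was 0.04 in WT kidneys. Hsf1 had log2 fold changes of 0.10 and 0.20, Hsf2 of -0.12 and -0.08 and Hsbp1, a binding protein of HSF1, of 0.09 and 0.26, none of them called.

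Genes of the tubule and of other cell types moved alongside. Over all genes 6.97% rose and 8.22% fell in WT kidneys, and 10.6% rose and 11.2% fell in KO kidneys. Of 5 thick limb and distal tubule markers 3 fell in WT and 2 in KO kidneys. Of 5 collecting duct markers 2 fell in each genotype. Of 6 measured proximal tubule markers 1 fell in WT and 5 in KO kidneys, and the sum of their linear intensities was 41010 to 42430 in WT controls, 42020 to 42690 in KO controls, 16900 to 39620 in WT UUO kidneys and 11790 to 23590 in KO UUO kidneys. Of 7 fibroblast and smooth muscle markers 5 rose in each genotype, with sums of 1156 to 1370 over the controls, 1322 to 1933 in WT UUO and 2050 to 2498 in KO UUO kidneys, and Myh11, a defining gene of smooth muscle, fell by 0.55 in WT kidneys. Of 8 leukocyte markers 2 rose and 1 fell in WT and 4 rose and 1 fell in KO kidneys, with Ptprc, Itgam and Cd3e near background in all groups, and sums of 1350 to 1915 over the controls, 1872 to 4028 in WT UUO and 2652 to 4617 in KO UUO kidneys. The part of these shifts in the changes of the chaperones was not tested. The 7 skeletal muscle and 5 adrenal markers were all below 7.05 on average, and none was called. None of 4 measured adipose markers was called either, but their sums reached higher values in some UUO kidneys. These sums were 493.6 to 511.2 in WT and 474.8 to 517.7 in KO controls. After UUO they were 484.3 to 965.9 in WT and 479.3 to 818.0 in KO kidneys.

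The genotype did not separate the chaperones at the thresholds used. After UUO, none of the 61 members met the study's criteria in limma over the 12 UUO arrays, which ask for a fold change over 1.3 together with p-values below 0.05 before and below 0.25 after adjustment, and 0.011% of all genes met them. That background, 2 genes, was unstable: single arrays left out gave 1 to 309 genes, with 309 without WT 3819, 94 without KO 3899, 31 without WT 3820 and 6 without WT 3818, and the 5 KO against the 4 WT arrays of set 2 gave 226. None of these fits called a member. Before adjustment 3 members were below 0.05, namely Dnajc3, Dnaja3 and the dim Dnajc14, each lower in KO kidneys, and the adjusted p-values were 0.336, 0.393 and 0.423 (limma). Dnajc3 averaged 9.66 ± 0.12 (SD, n = 7) in WT and 9.44 ± 0.15 (SD, n = 5) in KO UUO kidneys, a log2 difference of -0.22 ± 0.07 (SE). The next 2 by p were Dnajb12 and Dnajc15, a J protein of mitochondria, at -0.13 ± 0.07 and 0.11 ± 0.07. Hspb1 differed by 0.45 between the genotypes after UUO, with a 95% interval of -0.41 to 1.32, and by -0.04 ± 0.21 without arrays 3818 and 3820.

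The difference between the 2 responses was also tested directly, and in limma 0% of all genes and none of the members passed an adjusted p of 0.05. Before adjustment 3 members were below 0.05, with differences of 0.76 ± 0.30 (SE) for Dnajb9, -0.19 ± 0.08 for Dnaja3 and -0.31 ± 0.14 for Dnajc3, each with an adjusted p of 0.973 in limma. Dnajb6, a J protein that keeps proteins from aggregating, and Hspa1l, the HSP70 of testis, followed at 0.15 ± 0.08 and 0.16 ± 0.10, the latter at background. That Hspa8, Dnajb9, Dnajc3, Dnajc5, Dnajc30, Dnajb12 and Hspbap1 were called in KO kidneys alone is therefore not a shown difference between the genotypes. For Hspb1 the difference in response was 0.92 with a 95% interval from -0.65 to 2.5, which holds both no difference and a large one.

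Between control kidneys, limma called 0% of all genes and none of the members at an adjusted p of 0.05, with 2 arrays against 2. Before adjustment 3 members were below 0.05, Dnajb9 at -0.74 ± 0.26 (SE), Dnajb6 at -0.20 ± 0.07 and Hspa8 at -0.65 ± 0.30, KO minus WT. The KO controls of Dnajb9 and Hspa8 thus lay below the WT controls, and after UUO the genotypes differed by 0.02 ± 0.16 and -0.16 ± 0.19 for the 2 genes.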

How the data were processed

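The authors labelled kidney RNA with biotin, hybridized it to Illumina BeadChips, and deposited 1 linear intensity per gene, imported with beadarray per the methods. BeadStudio 2 is named in the submitters' processing notes. Background correction, normalization and the rule that joins probes are not given in the sources used here, and detection values were not used here. Medians of 132 to 133 on every array show values already scaled alike.

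Intensities were quantile-normalized, taken to log2 and compared with limma 3.58.1 in R 4.3.3, with p-values adjusted over 18132 genes. UUO responses, their difference and the control comparison came from 1 model of 4 groups and 16 arrays, and the genotypes after UUO from all 12 UUO arrays, at the study's criteria. The study's own contrast used fewer WT kidneys, and 5 KO against the 4 WT arrays of set 2 was run as an alternative. The labels give 1 numbered kidney per array, and p-values measure the spread between these kidneys. On simulated arrays, 97.5% of 200 genes changed by a log2 of 1 were recovered in the WT response and 91.5% in the difference between responses. The changed genes were drawn from all genes, with independent noise and no difference between sets of mice. These shares say little about noisy members. The SE of the difference in response was 0.74 for Hspb1, 0.92 for Hspa1a and 0.50 for Dnajc6.

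The members and lists were chosen with earlier results of these data known. Named were 15 measured textbook chaperones, all members called in a UUO response, the 5 members with the smallest p in each of the 2 genotype tests after UUO, genes of the lists called in both responses, and Hsf1, Hsf2, Cryab, Bag3, Hsbp1, Il33 and Havcr1. Others were named after their values were seen. Promoter windows are those of RefSeq, GRCm38.p6.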

Additional observations from a re-analysis of the deposited data

Results flagged for a closer look

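Among the values of the 28 named members in the 2 UUO groups, 7 of 56 sets held a kidney far from the others of its group by Dixon's ratio of gap to range. Chance flags about 1 in 20. In WT kidney 3819, Hspa1a stood at 11.39 (others 8.33 to 9.35) and Dnajb1 at 11.52 (others 10.17 to 10.65), so the inducible HSP70 and its J protein were high in the same kidney. Hsp90aa1 was 7.43 in WT kidney 3894 (others 7.02 to 7.19), near background. In KO kidneys, Hspb1 was 11.85 in 3822 (others 11.36 to 11.49) and Hsp90b1 11.84 in 3821 (others 12 to 12.05). KO kidney 3898 held the highest Hspb6 value, 10.31 (others 10.05 to 10.08), and the lowest Dnajb12 value, 7.96 (others 8.22 to 8.31).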

How the results depend on the processing

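The 7 members called in the WT response became 12 with array weights, 12 with the UUO arrays of set 2 alone, 12 without arrays 3818 and 3820 (chosen after seeing the data), 3 with the WT arrays alone and 0 with the UUO arrays of set 1 alone. Leaving out single arrays gave 3 to 9, the 3 without WT control 3811 or 3812, where Hspb6, Dnajc12 and Dnaja3 were called. The 14 called in the KO response became 6 with the UUO arrays of set 1 alone, and 6 to 14 without single arrays, with 6 without KO control 3813 and 8 without 3814. Every other alternative for the 2 responses stayed within 1.5 times: no further normalization, median centring, intensity trend, brighter genes alone, a fold change minimum and, for KO, array weights, KO arrays alone and set 2. No called member changed sign in any alternative run. Hspb1, Hspb6, Dnajc12, Dnajc19 and Dnaja3 were called in the KO response under all 15 alternatives. The genotype comparisons gave 0 members in every alternative, sets as a block and each set alone included. No paired analysis was possible because the groups share no replicate numbers. With 2 controls per genotype and background near 7.05, small changes of dim members would not be detectable, and the cause of the set difference was not tested.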
